A study of Mus musculus with 16 samples.

Results

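The regions described here are stretches of accessible chromatin that male mouse germ cells had at E13.5 (E for embryonic day), that were missing from the peak lists of E16.5 and of P0, the day of birth, and that were listed again at P3, the third day after it. They are the peaks of the E13.5 heterozygous list that overlapped, by 1 bp or more, both the E13.5 knockout list and the P3 list, and overlapped no peak of either E16.5 list or of the P0 list, called the arrest-stage lists below. The rule was met by 883 of 40448 peaks (2.18%). The regions were thus selected on presence and absence in the peak lists themselves, so their pattern over the stages is a description and has no test.

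The assay, ATAC-seq, uses a transposase that cuts and tags DNA where it is not packed away, and a peak is a place where many such cuts collect. The germ cells came from the testes of Mvh-Venus transgenic mice, whose germ cells fluoresce, and were either Morc1 (+/-), called heterozygous here, or Morc1 (-/-), called knockout. Each genotype has 2 samples at each of the 4 stages, and the pair shares 1 peak list. All groups carry the Mvh-Venus transgene and at least 1 mutant *Morc1* allele, and no wild-type group is among them. Both genotypes have identical lists at P0 (67258 rows) and at P3 (44760 rows), so no genotype can be attached to what follows at those stages. A list holds positions only, with no height, score or read count. Depth is therefore unknown, absence from a list means that no peak was called, and there is no spread between replicates. Intervals given below are 95% Wilson intervals and cover counting error over peaks or genes only.

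Fetal male germ cells, called gonocytes or prospermatogonia, divide when they first reside in the testis, then leave the cell cycle and stay arrested until shortly after birth, when they resume division and move to the edge of the tubule. During the arrest their genome regains DNA methylation, and MORC1, a nuclear ATPase, takes part in silencing transposons in that period. E13.5 lies before or at the onset of the arrest, E16.5 and P0 within it, and P3 around its end. Accessible regions are of broadly 2 kinds, promoters, which many cell types share, and distal elements in introns and between genes, which tend to be specific to a cell state.

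The sequences of 6 promoter windows that the regions cover are shown first, because they show regions at gene starts far from, and close to, peaks of the arrest. A window runs from 250 bases before to 50 bases after an annotated start, is printed 5′ to 3′ along the gene, and comes from RefSeq, build GRCm38.p6. Capitals mark matches, on either strand and counted also where they overlap, to 11 short motifs. They are the GC box bound by SP and KLF factors (GGGCGG), the box bound by NF-Y (CCAAT) and the letters of ETS factors (CCGGAAG). E-box proteins bind CACGTG, E2F factors the letters TTCCCGC, and the cell cycle homology region, CHR, is TTTGAA. The TATA box was searched as TATAAA. For proteins of the family of GATA factors the letters were AGATAA, and for SOX factors they were ACAAAG. The AP-1 letters were TGANTCA, where N is any base, and those of the cAMP response element, CRE, were TGACGT. The first 3 windows lay far from any E16.5 or P0 peak. They are a start inside *Foxp1* (chr6:99266466-99266765, minus strand), a start inside *Aim2* (chr1:173420354-173420653, plus strand) and a start of *Tmsb4x* (chrX:167209169-167209468, minus strand).
Foxp1: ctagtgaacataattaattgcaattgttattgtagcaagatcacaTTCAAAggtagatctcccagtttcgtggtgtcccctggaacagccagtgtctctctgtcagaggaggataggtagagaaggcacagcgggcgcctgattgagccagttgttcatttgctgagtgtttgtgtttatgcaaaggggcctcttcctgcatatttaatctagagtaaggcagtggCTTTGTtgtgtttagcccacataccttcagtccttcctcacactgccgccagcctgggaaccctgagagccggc
Aim2: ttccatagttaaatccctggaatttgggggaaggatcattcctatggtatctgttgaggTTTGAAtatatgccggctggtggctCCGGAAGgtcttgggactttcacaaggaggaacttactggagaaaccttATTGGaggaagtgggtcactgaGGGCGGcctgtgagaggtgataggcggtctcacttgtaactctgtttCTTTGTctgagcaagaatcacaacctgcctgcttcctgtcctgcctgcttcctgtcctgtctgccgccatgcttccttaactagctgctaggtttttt
Tmsb4x: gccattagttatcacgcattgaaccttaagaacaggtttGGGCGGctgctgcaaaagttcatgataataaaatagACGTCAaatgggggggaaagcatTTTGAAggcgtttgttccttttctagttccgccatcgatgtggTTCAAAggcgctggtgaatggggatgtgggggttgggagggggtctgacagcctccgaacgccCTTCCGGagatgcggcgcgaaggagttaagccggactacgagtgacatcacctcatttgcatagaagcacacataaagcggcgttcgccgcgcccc

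The other 3 windows lay beside a peak that the E16.5 and P0 lists did hold. They belong to *Mcm7* (chr5:138171834-138172133, minus strand), *Enox1* (chr14:77156513-77156812, plus strand) and *Elavl2* (chr4:91399935-91400234, minus strand).
Mcm7: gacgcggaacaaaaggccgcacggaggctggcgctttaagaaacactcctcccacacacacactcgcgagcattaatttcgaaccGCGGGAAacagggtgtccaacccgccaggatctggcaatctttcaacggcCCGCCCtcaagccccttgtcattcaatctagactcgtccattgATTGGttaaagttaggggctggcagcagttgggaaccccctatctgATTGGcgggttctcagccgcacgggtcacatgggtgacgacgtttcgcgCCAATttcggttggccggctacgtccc
Enox1: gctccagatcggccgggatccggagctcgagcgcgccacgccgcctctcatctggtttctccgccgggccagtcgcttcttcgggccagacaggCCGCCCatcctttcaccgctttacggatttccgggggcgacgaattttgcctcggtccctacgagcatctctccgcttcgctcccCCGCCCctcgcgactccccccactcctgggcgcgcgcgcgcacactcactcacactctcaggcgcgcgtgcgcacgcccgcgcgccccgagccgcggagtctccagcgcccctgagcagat
Elavl2: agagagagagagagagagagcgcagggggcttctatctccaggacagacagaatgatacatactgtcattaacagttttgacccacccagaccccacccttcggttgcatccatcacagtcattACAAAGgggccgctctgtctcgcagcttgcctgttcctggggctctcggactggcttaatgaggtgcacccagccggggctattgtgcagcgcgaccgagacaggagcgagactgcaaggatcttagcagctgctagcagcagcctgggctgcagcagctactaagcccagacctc

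Most accessible regions that dropped out of the lists during the arrest did not come back by P3. Of 31822 E13.5 peaks present in both genotypes, 8330 (26.2%) were in none of the 3 arrest-stage lists. The P3 list held 883 of these (10.6%, interval 9.96 to 11.3), and the other 7447 were seen at E13.5 only. Among E13.5 peaks that all 3 arrest-stage lists held, 17202 of 18137 (94.8%) were in the P3 list. Seen from P3, 4991 of its 44760 peaks (11.2%) were in none of the arrest-stage lists, and 870 of these (17.4%) overlapped both E13.5 lists. Among E13.5 peaks of the heterozygous list alone that were missing in the arrest, the share was 397 of 5251 (7.56%, interval 6.88 to 8.31), an interval apart from that of the peaks of both genotypes.

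Peaks that missed only some of the arrest-stage lists stood between these extremes. When P0 was the single arrest-stage list to hold an E13.5 peak, P3 held 502 of 873 (57.5%). When the E16.5 heterozygous list alone held it, the share was 159 of 498 (31.9%), and when the E16.5 knockout list alone held it, 247 of 973 (25.4%). Leaving the P0 list out of the rule would thus have given 1385 regions in place of 883.

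**Figure D1:**
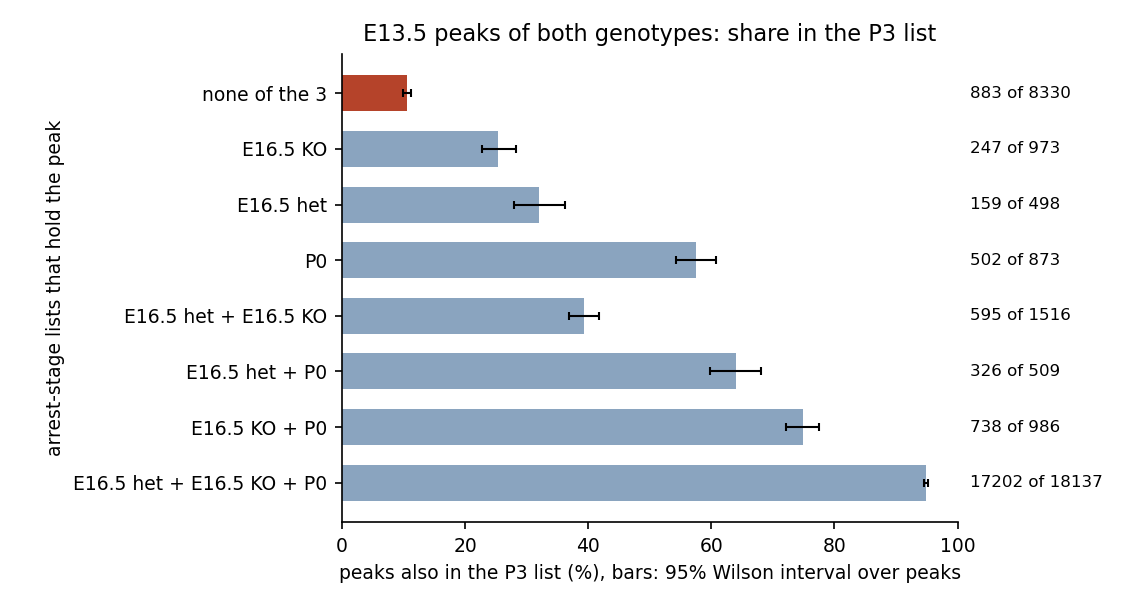
Share of E13.5 peaks of both genotypes that are also in the P3 list (x axis, percent, with 95% Wilson intervals), by which of the 3 arrest-stage lists hold the peak (y axis, with counts at the right). The red bar is the set described here, 883 of 8330 peaks (10.6%), and the lowest bar is 17202 of 18137 (94.8%).

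The peaks of a region lay closer together than the rule, which allows about the width of a peak, required. The centre of the P3 peak lay a median of 43 bp from the centre of the E13.5 heterozygous peak (quartiles 20 and 96 bp), compared with 30 bp (12 and 67 bp) for the 17202 peaks held by all 6 distinct lists. It lay within 100 bp in 677 of 883 regions (76.7%, interval 73.8 to 79.3) and in 85.1% of the peaks of all 6 lists. Between the genotypes at E13.5 the centres differed by a median of 34 bp, and the same median held for the E13.5-only peaks.

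Most regions lay well apart from the peaks of the arrest. The nearest E16.5 or P0 peak lay a median of 9619 bp away (quartiles 3159 and 21994.5 bp), close to the 10672 bp of the E13.5-only peaks. In 98 of 883 regions (11.1%, interval 9.19 to 13.3) it lay within 500 bp, against 293 of 7447 E13.5-only peaks (3.93%, interval 3.52 to 4.40). In 35 regions (3.96%) the knockout or the P3 peak itself touched an E16.5 or P0 peak although the heterozygous peak did not. At the limit of the rule, the closest region (chr3:104864841-104865341) abutted an arrest-stage peak with a gap of 0 bp, and the next had gaps of 3 and 4 bp. Just outside it, peaks at chr1:45852821-45853321, chr10:125949038-125949538 and chr7:54092964-54093464 shared 1 bp with one. The surroundings of the regions did hold peaks in the arrest. The E16.5 heterozygous list had a median of 4 peaks and the P0 list a median of 5 within 100000 bp of a region, as for the E13.5-only peaks.

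Most regions were distal. A gene end is here a stretch of 1000 bp on either side of an outer end of an annotated gene. Within genes but away from their ends lay 443 regions (50.2%, interval 46.9 to 53.5), between genes 313 (35.4%, interval 32.4 to 38.7), and at a gene end 127 (14.4%, interval 12.2 to 16.9). All E13.5 peaks of both genotypes were at a gene end in 42.6% of cases, and the peaks of all 6 lists in 64.1%. The E13.5-only peaks, the most similar set, had 9.79% at gene ends (interval 9.13 to 10.5), 52.7% within genes and 37.5% between genes. Of the E13.5 peaks that left the lists in the arrest, those at gene ends were back at P3 in 127 of 856 cases (14.8%, interval 12.6 to 17.4), those within genes in 10.1% and those between genes in 10.1%.

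**Figure D2:**
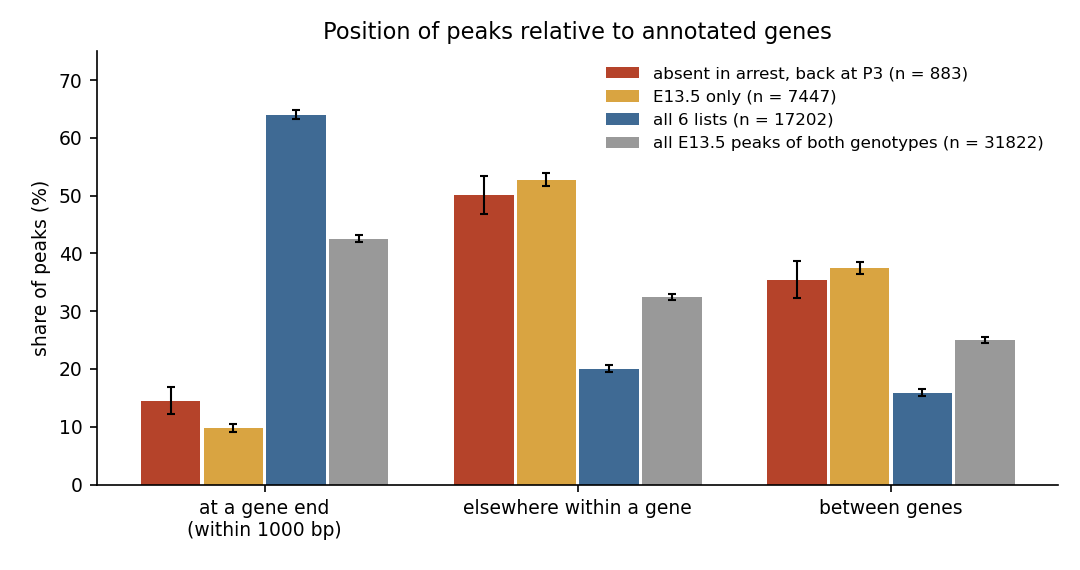
Share of peaks (y axis, percent, with 95% Wilson intervals) at gene ends, elsewhere within genes and between genes, for the 883 regions and 3 other sets of E13.5 peaks. The regions lie close to the E13.5-only peaks (14.4% and 9.79% at gene ends) and far from the peaks of all 6 lists (64.1%).

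The regions at gene ends lay closer to arrest-stage peaks than the other regions did. Their median distance to one was 3093 bp, and 35 of 127 (27.6%, interval 20.5 to 35.9) had one within 500 bp. Within genes the median was 14155 bp and the share 6.77%, and between genes 8000 bp and 10.5%. The E13.5-only peaks had the same order, with medians of 6022 bp at gene ends, 13932.5 bp within genes and 8203 bp between genes. Their shares within 500 bp were 10.6%, 2.01% and 4.91%. Without regions or peaks that had an arrest-stage peak within 2000 bp, gene ends made up 70 of 693 regions (10.1%, interval 8.07 to 12.6) and 532 of 6501 E13.5-only peaks (8.18%, interval 7.54 to 8.87). These intervals overlapped, whereas those of the full sets were apart. The filtered sets are smaller and the share stayed higher in the regions, so the overlap does not show equal shares. A region lay at an outer end of 149 of 49943 annotated genes (0.298%) and of 76 of 21887 protein-coding genes (0.347%). Of the 76, 49 (64.5%) also had a P0 peak at an end, close to the 63.0% of all protein-coding genes. In 26 (34.2%) no arrest-stage list had a peak at an end. The like share over all protein-coding genes was not computed, so this count does not set the genes apart from others. The 26 include, picked after their values were seen except for *Inha*, *Tpi1*, a glycolytic enzyme, *Eln*, the elastin gene, *Fgf1*, a growth factor, and *Inha*, the inhibin alpha subunit. The nearest arrest-stage peak was 7952 bp from the *Tpi1* region, 5298 bp from that of *Eln*, 9593 bp from that of *Fgf1* and 247 bp from that of *Inha*. An arrest-stage peak can thus lie beside a region and still miss the gene-end stretch.

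**Figure D3:**
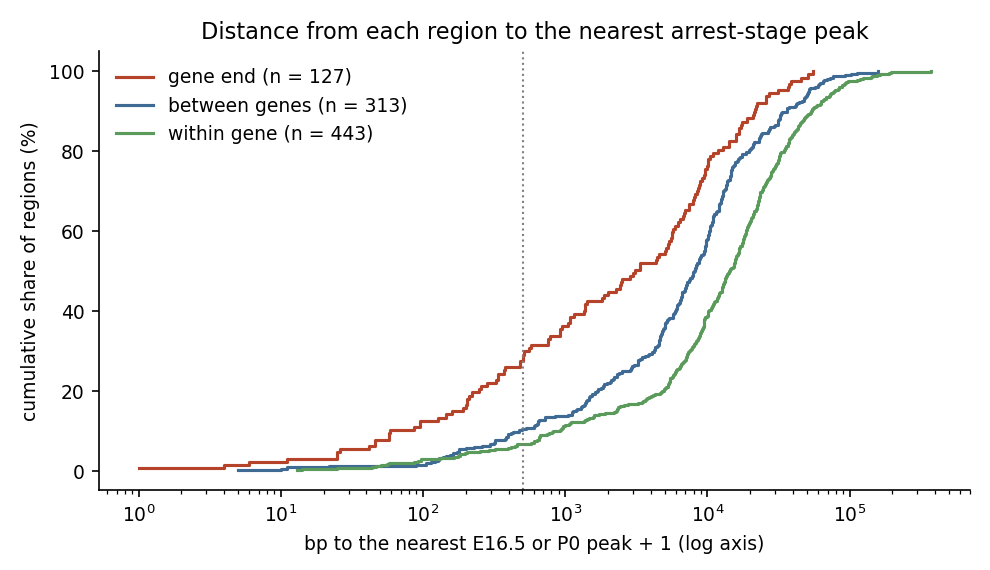
Cumulative share of regions (y axis, percent) by distance to the nearest E16.5 or P0 peak (x axis, bp plus 1, log axis), separately for regions at gene ends, within genes and between genes. The dotted line marks 500 bp, by which 27.6% of the gene-end curve, 10.5% of the curve between genes and 6.77% of the curve within genes have been reached.

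The share that overlapped a promoter window at an annotated start was also higher in the regions than in the E13.5-only peaks. On the chromosomes that the RefSeq promoter table covers, 55 of 848 regions (6.49%, interval 5.02 to 8.35) overlapped a window, compared with 3.16% of E13.5-only peaks (interval 2.78 to 3.59) and 51.4% of the peaks of all 6 lists. The 55 regions met 59 windows, 42 of protein-coding genes and 17 of long non-coding RNAs. All but 2 of these windows, those of *Npdc1* and *Ndrg4*, were untouched by E16.5 and P0 peaks. The regions were selected to overlap no such peak, so this count largely follows from the rule. The like share for other windows was not computed. An arrest-stage peak lay within 500 bp of 24 of the 55 regions (43.6%) and within 2000 bp of 28 (50.9%). The like shares of the E13.5-only peaks were not computed, nor were the overlap shares without peaks near the arrest-stage ones.

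The 3 windows printed first belong to the distant kind. The *Foxp1* region, at chr6:99266199-99266699 inside the gene, covered 234 of the 300 bases of its window. *Foxp1* encodes a forkhead transcription factor. The E13.5 knockout peak there was at chr6:99265973-99266473 and the P3 peak at chr6:99266127-99266627. The nearest peak was 237718 bp away in the E16.5 heterozygous list, 194265 bp away in the E16.5 knockout list and 194249 bp away in the P0 list, so that the region lay in a wide stretch without arrest-stage peaks. *Aim2*, which encodes a sensor of cytosolic DNA, had a region (chr1:173420222-173420722) over its whole window. Its nearest arrest-stage peaks lay 52337 bp (E16.5 heterozygous), 52355 bp (E16.5 knockout) and 22717 bp (P0) away. The region at *Tmsb4x*, which encodes the actin-binding peptide thymosin beta 4, was at chrX:167208988-167209488, and its nearest arrest-stage peaks were 23832, 67484 and 17797 bp away in the same order. *Tmsb4x*, like *Elavl2* below, was chosen after its values were seen.

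The 3 windows printed second lay closer to arrest-stage peaks, at *Mcm7* and *Elavl2* within 500 bp and at *Enox1* just beyond that. *Mcm7* encodes a subunit of the replicative DNA helicase, and its start faces away from that of its neighbour *Ap4m1*, whose promoter window overlaps that of *Mcm7* and is also covered. The region (chr5:138171835-138172335) covered 299 bases of the *Mcm7* window. Its centre lay 202 bp upstream of the *Mcm7* start and nearer to the *Ap4m1* start, 64 bp downstream of it. Arrest-stage peaks lay 376 bp (E16.5 heterozygous), 377 bp (E16.5 knockout) and 387 bp (P0) from the region. Its P3 peak had its centre 219 bp from the E13.5 centre, compared with the median of 43 bp. At *Enox1*, a gene for an electron transport protein of the cell surface, the 3 peaks of E13.5 heterozygous, E13.5 knockout and P3 cells had centres within 7 bp of each other. Arrest-stage peaks lay 612, 577 and 609 bp away, and *Enox1* is among the 26 genes with none at an outer end. *Elavl2*, which encodes an RNA-binding protein known from neurons, had a region at chr4:91399663-91400163 with arrest-stage peaks 269, 275 and 255 bp away. A region over the start of *Boll*, a relative of *Dazl* that acts in meiotic germ cells, also chosen after its values were seen, had them 360, 215 and 200 bp away.

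The windows that the regions met were less rich in CpG than those of lasting promoters. Their median CpG content was 0.514 of that expected from their base composition (quartiles 0.285 and 0.854), against 0.800 (0.647 and 0.932) in windows met by peaks of all 6 lists, 0.309 in those met by E13.5-only peaks and 0.383 in all 32815 distinct windows. Median GC content was 57.3%, against 63.0%, 52.0% and 52.7%. When only regions with no arrest-stage peak within 2000 bp were kept, the median CpG ratio was 0.305. The same filter was not applied to the E13.5-only peaks, so their 0.309 is not a like value. The printed windows show the range, with 0.282 at *Foxp1*, 0.277 at *Aim2*, 0.410 at *Elavl2*, 0.978 at *Mcm7*, 0.988 at *Tmsb4x* and 1.20 at *Enox1*.

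For 2 of the 11 motifs, the interval of the windows met by the regions did not include the share of all windows. The 59 windows come from 55 regions, so some share bases. The SOX letters were in 18 of 59 windows (30.5%, interval 20.3 to 43.1), against 18.7% of all windows, 22.6% of windows met by E13.5-only peaks and 11.6% of those met by peaks of all 6 lists. The GC box was in 32 of 59 (54.2%, interval 41.7 to 66.3), between 35.6% of all windows and 71.6% of the windows of all 6 lists. The ETS letters were in 4 (6.78%), the E2F letters in 3 (5.08%), the CHR letters in 13 (22.0%) and the CCAAT box in 18 (30.5%), where all windows had 8.86%, 4.60%, 17.9% and 37.4%. The remaining letters were in 3 (GATA), 3 (AP-1), 6 (cAMP response), 7 (E-box) and 9 (TATA) windows, or 5.08%, 5.08%, 10.2%, 11.9% and 15.3%, where all windows had 11.2%, 7.81%, 7.51%, 7.15% and 13.6%. The *Mcm7* window holds E2F letters 165 bases before its start, a GC box and 3 CCAAT boxes. A match is a description of the letters only.

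Few genes held several regions. At an end or inside, 440 protein-coding genes had a region (2.01% of all protein-coding genes), of which 405 had 1 and 30 had 2. *Dlgap1*, a postsynaptic scaffold gene on chromosome 17 (69969073 to 70821413), had 5, among 9 E13.5 peaks of the gene that were missing in the arrest. *Aim2* (chromosome 1, 173349547 to 173466040) had 4 of 8, and 2 of these 4 also lie in the overlapping *Cadm3*, a cell adhesion gene. *Phldb2*, with a product of the cell cortex, had 3 of 5. *Ldlrad4*, an inhibitor of TGF-beta signalling, also had 3 of 5. The genes *Rab11fip5*, *4930558K02Rik*, *Nme8* and *Pik3r1* had 2 each, and in each of them these were the only E13.5 peaks of both genotypes missing in the arrest. These genes were ranked by the count itself, so their shares exceed 10.6% by selection.

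The regions most remote from arrest-stage peaks that are named here lay inside genes, with 1 exception. The farthest, in *Auts2*, a regulator of transcription and neuronal growth, was at chr5:132171635-132172135. The nearest peak lay 371267 bp away in the E16.5 heterozygous list, 371189 bp in the E16.5 knockout list and 371291 bp in the P0 list. After the *Foxp1* region came regions in *Fhit* (chr14:9695272-9695772, nearest peak 189949 bp away) and, between genes on chromosome 18, 167279 bp from *Ftmt* (nearest peak 157569 bp). Regions in *Tenm2* (142763 bp), *Vps13b* (140437 bp), *Rabgap1l* (138613 bp) and *Smyd3* (123573 bp) followed. In *Auts2*, 6 of 10 E13.5 peaks of both genotypes were missing in the arrest, and in *Fhit* 9 of 14.

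At protein-coding gene ends, the 10 regions whose 3 peaks coincided best included, besides *Enox1*, those of *Gabarap* and *Phf23*, *Rap2b*, *H2-Ab1*, *Gtf3c6*, *Ankrd34c*, *Myadml2*, *Zbtb10*, *Ccer2* and *Tbl1x*. Their centres spanned 7 to 28 bp. *Gabarap* encodes a ubiquitin-like protein of autophagosomes and *H2-Ab1* a class II histocompatibility chain. Arrest-stage peaks lay 126 bp (*Myadml2*) to 2453 bp (*Ccer2*) from them, 221 bp from the *Rap2b* region and 1080 bp from the *H2-Ab1* region (chr17:34263018-34263518).

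The share of listed genes with a region was not set apart from that of all protein-coding genes. Of 330 genes in 14 lists covering proliferation, germ-cell and signalling functions, 5 had a region at an end or inside (1.52%, interval 0.649 to 3.497), an interval that includes the 2.01% of all protein-coding genes. In 10 of the 14 lists no gene had one, which were cell cycle inhibitors (20 genes), mitosis (31), pluripotency and primordial germ cells (27), spermatogonial stem cells (22), spermatogonial differentiation (12), meiosis (26), retinoic acid (18), FGF and MAPK signalling (21), WNT signalling (22) and immediate early genes (12). Among 44 DNA replication genes *Mcm7* alone had one. Of 29 cell cycle drivers, *Ccnd3*, a D-type cyclin, and *E2f3*, a transcription factor of the G1 to S transition, each had 1 inside the gene. These lay 37513 and 28514 bp from the nearest arrest-stage peak. Of 24 fetal male germ-cell and piRNA genes, *Tdrd5*, which is needed for transposon silencing, had 1 (chr1:156285073-156285573, 17669 bp from the nearest), and of 25 TGF-beta, activin and BMP genes the receptor *Bmpr1b* had 1 (23468 bp). *Mcm7*, *E2f3*, *Tdrd5* and *Bmpr1b* had a gene-end peak in all 6 lists, and *Ccnd3* in the E13.5 knockout list only.

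Markers of testis somatic cells were examined because a germ-cell sort can hold other cells. Of 49 markers of Sertoli, Leydig, interstitial, endothelial and blood cells, 4 had a region (8.16%, interval 3.22 to 19.2), with an interval above the 2.01% of all protein-coding genes. An E13.5-only peak lay in 4 of the 49 (8.16%) and in 12.7% of protein-coding genes. The 4 were *Inha* and *Fshr* (2 of 15 Sertoli markers, inhibin alpha and the receptor of follicle-stimulating hormone), *Cyp11a1* (1 of 6 Leydig markers, the enzyme that opens steroid synthesis) and *Acta2* (1 of 9 interstitial and peritubular markers, smooth muscle actin). None of 10 endothelial, 9 macrophage and blood, or 8 germ-cell markers had one. The *Inha* region (chr1:75506217-75506717) also covered a start of the neighbouring *Obsl1* and had arrest-stage peaks 376, 314 and 247 bp away. The *Fshr* region was 11676 bp, the *Cyp11a1* region 4119 bp and the *Acta2* region 249 bp from the nearest one.

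Over all 49 somatic markers, the number with a peak at an outer end was 17 (E13.5 heterozygous), 19 (E13.5 knockout) and 15 (P3) at the stages where the regions were listed. In the arrest-stage lists it was 22 at P0, 21 in knockout cells at E16.5 and 20 in heterozygous cells at E16.5. Over the 6 lists the counts were 30.6% to 44.9% of these markers, against 58.3% to 63.0% of protein-coding genes. The arrest-stage lists were also the longest, with 67258 (P0), 57117 (E16.5 knockout) and 53687 (E16.5 heterozygous) peaks. The other lists had 40448 (E13.5 heterozygous), 39559 (E13.5 knockout) and 44760 (P3). *Inha* had a gene-end peak at E13.5 and P3 and no peak in the arrest-stage lists, whereas *Cyp11a1* had one in all 6. *Fshr* had one in both E16.5 lists, at P0 and at P3, and *Acta2* had one at P0 and P3 only. Somatic markers without a region differed as well. Among them, *Inhbb* had a gene-end peak in the E16.5 lists only, and *Wt1* in every list but that of P3. The Sertoli markers *Amh*, *Cst9*, *Sox9* and *Gata1* and the Leydig markers *Insl3*, *Star* and *Hsd3b1* had no peak in any list. By contrast, the Sertoli markers *Aard*, *Clu*, *Dhh* and *Sox8* and the Leydig marker *Lhcgr* had a gene-end peak in all 6. Of the 8 germ-cell markers, *Ddx4*, *Dazl*, *Dnd1*, *Mael*, *Kit* and *Sycp3* had a gene-end peak in all 6 lists, and *Pou5f1* had one in the E16.5 and P0 lists only. *Tdrd1* had no gene-end peak in any list, and a peak inside the gene at P3 only. Peak lists show no cell numbers, and the part of other cell types in the 4 marker regions was not tested.

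Chromosomes differed in how many regions they held. Per E13.5 peak of both genotypes the share was 2.77% over the genome and highest on chromosome 3, with 81 of 1819 (4.45%, interval 3.60 to 5.50). Chromosome 13, with 54 of 1484 (3.64%, interval 2.80 to 4.72), also had an interval above that share, though only just. It was lowest on the X chromosome, with 9 of 870 (1.03%, interval 0.545 to 1.95). Chromosomes 4 (1.69%), 7 (1.38%) and 11 (1.83%) also had intervals that ended below 2.77%. None of these intervals is adjusted for the number of chromosomes compared. Of the E13.5 peaks missing in the arrest, 9 of 188 on the X chromosome were back at P3 (4.79%, interval 2.54 to 8.85), against 10.6% overall and 81 of 528 (15.3%, interval 12.5 to 18.7) on chromosome 3. By this share the intervals of chromosomes 13 (12.4%, 9.66 to 15.9) and 11 (8.08%, 5.87 to 11.0) included 10.6%. Those of chromosomes 4 (7.07%, 5.13 to 9.67) and 7 (6.46%, 4.53 to 9.12) ended below it. The X chromosome carries 2 of the promoter regions above, those of *Tmsb4x* and of the long non-coding RNA *Jpx*. *Jpx* was chosen after its values were seen, and its region lay 35257 bp (E16.5 heterozygous), 32231 bp (E16.5 knockout) and 10937 bp (P0) from the nearest peaks.

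**Figure D4:**
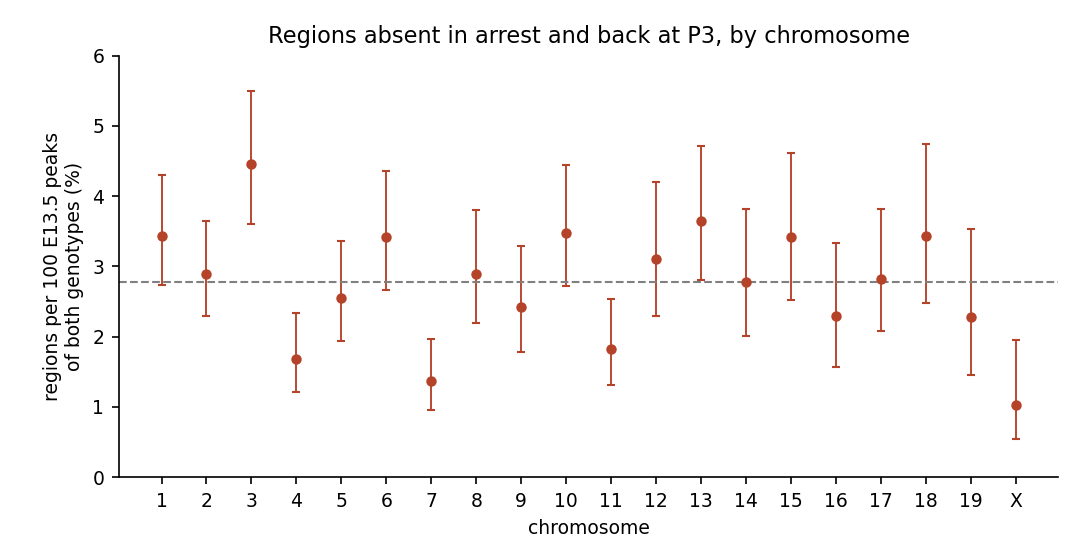
Regions as a share of the E13.5 peaks of both genotypes on each chromosome (y axis, percent, points with 95% Wilson intervals), with the genome-wide 2.77% as a dashed line. The whole intervals of chromosomes 3 (4.45%) and 13 (3.64%) lie above the line, the latter only just. Those of chromosomes 4, 7, 11 and X lie below it. The intervals are not adjusted for the number of chromosomes. Chromosome Y had 6 peaks and no region and is not drawn.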

How the data were processed

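The authors deposited 8 ATAC-seq peak lists, 1 per stage and genotype, each with a chromosome, a start and an end and no other unit. Nearly all peaks are 501 bp wide. Per the submitters' processing notes, build mm10 and the tools bcl2fastq 2.20, cutadapt 1.18, Bowtie2 2.3.4.1, deepTools 3.5.0 and HOMER 4.10 were used. Their settings, the peak threshold and whether samples were pooled are not given in the sources used here. A fixed width hides changes in breadth.

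Positions are printed 1-based. Overlaps, gaps and gene positions were computed in Python 3.11.15 with pandas 2.3.3 and checked against bedtools 2.31.1 (883 regions by both) and on simulated lists (400 of 400 planted regions found). Gene bounds and promoter sequences came from RefSeq tables of GRCm38.p6, the assembly called mm10. All 379 listed genes matched. The gene table gives outer bounds without exons, and the promoter table holds none from chromosome 18. The regions, gene lists and motifs were chosen with earlier results of these data known. Named are listed genes with a region, and 10 each by number of regions, by distance from arrest-stage peaks and by closeness of peak centres at coding gene ends. One gene that this rule names is not reported here.

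Alternatives concerned the overlap, the distance that counts as absent, the list that supplies the regions, the genotypes, the chromosomes, the gene-end window, the gene class and the promoter overlap. Dropping the P0 list was added after seeing the data.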

Additional observations from a re-analysis of the deposited data

How the results depend on the processing

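No paired analysis was possible because the replicates of a group share a single list of positions, which also prevents leaving one of them out. Shares were compared with the 95% interval of the printed share, and counts and medians by a factor of 1.5. Of 80 recomputed values, 62 stayed within these limits and 18 did not. Taking the regions from the E13.5 knockout list (881) or the P3 list (870), autosomes only and centres inside the promoter window left all values within them. The return share has no value when regions come from the P3 list.

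Using heterozygous lists only gave 1595 regions, since fewer lists restrict them. Without the P0 list, 15.0% of 9203 peaks came back, and 17.9% of the 1385 regions were at gene ends and 43.5% within genes. Requiring no arrest-stage peak within 500 bp gave a return share of 9.89%, 11.7% at gene ends and 0 listed genes with a region at an end, in place of 2. Within 2000 bp these were 9.63%, 10.1% and 0, with 54.7% within genes and a CpG ratio of 0.305. A reciprocal overlap of 50% put 17.4% at gene ends, and a gene-end window of 500 bp 11.1%. With protein-coding genes only, 7.36% were at gene ends, 45.4% within genes and 47.2% between them, by construction of the narrower annotation.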

Other observations

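The regions were spread singly over the genome, with a few local groups. Of windows of 1000000 bp that held any region, 526 held 1, 131 held 2, and 2 held 5. Only 6 of 883 regions lay within 10000 bp of another. The 2 fullest windows were at *Dlgap1* on chromosome 17 (70000001 to 71000000) and around the long non-coding RNA gene *Gm30382* on chromosome 3 (149000001 to 150000000). In the latter, 5 of 9 E13.5 peaks of both genotypes that were missing in the arrest were back at P3. These windows were ranked by the count itself. Windows with 4 regions included *Aim2* and *Cadm3* on chromosome 1, *Ldlrad4* on chromosome 18, and *Mtmr7*, *Pdgfrl* and *Zdhhc2* on chromosome 8. No region overlapped the hairpin of an annotated microRNA.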
